A study of Homo sapiens with 4 samples.

Results

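The HOX genes described here are the 38 members of the HOXA, HOXB, HOXC and HOXD clusters whose promoters were taken, by Entrez identifier, from a table of 28775 promoters. The readout was ATAC-seq, where the enzyme Tn5 cuts DNA that is not covered by nucleosomes or other proteins and tags it for sequencing, so that more counts mean more open chromatin. All libraries came from HEK293T, an established human embryonic kidney line with the SV40 large T antigen, and all cells carried their wild-type MORC2 gene. In the overexpression group (2 libraries) the cells were transfected with MORC2 fused to a green fluorescent protein, and in the control group (2 libraries) they received the transfection reagent lipofectamine alone. Transfection was transient, and the share of cells that took up the plasmid was not analysed here. The labels number the replicates but do not say whether they were separate cultures, so p-values measure only the spread between these libraries. That spread was estimated jointly for promoters of like abundance. A p-value or SE therefore does not reflect how well the replicates of a single promoter matched.

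HOX genes encode homeodomain transcription factors that assign identity along the head-to-tail axis of the embryo and along the limbs. The genes of a cluster lie side by side on the same strand and are numbered by paralogue group, and their order along the chromosome follows the order in which they are used along the body, from anterior (low numbers) to posterior (high numbers). Polycomb complexes keep silent HOX genes in compact chromatin and MLL complexes keep active ones open. MORC2, the factor raised here, is an ATPase that compacts DNA and acts with the HUSH silencing complex. The comparison asks whether accessibility at these promoters differs between cells given the MORC2 plasmid and cells given lipofectamine alone. Neither group received a plasmid without MORC2 or the fluorescent protein on its own. Which part of any difference is owed to MORC2, to plasmid DNA or to the fluorescent protein was therefore not tested.

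Total promoter counts ranged from 3734519 to 10255182 per library, and counts of nuclear promoters from 979895 in overexpression to 4928862 in control. Promoters of the mitochondrial genome took 51.9% and 55.6% of all counts in the control libraries. In the overexpression libraries they took 74.7% and 73.8%. The make-up of the libraries thus differed along with the groups compared, and its effect cannot be told apart from that of the transfection. Levels are given as TMM-scaled CPM, which are counts scaled to a common library total after adjusting each total for composition with the TMM method. The study defines every promoter window with the same length, 2 kb, so levels were compared between genes without scaling for length. They were not adjusted for copy number or for how well reads map to a window, so ranks between genes are descriptive. The promoter of MORC2 itself was covered by 257 and 162 fragments in the controls and by 87 and 42 with overexpression (log2 fold change −0.14, SE 0.155, edgeR adjusted p 0.695). This value is the accessibility of the promoter in the genome and does not measure how much MORC2 the plasmid gave. Of 8 promoters picked as markers of HEK293T, 4 lay above the median nuclear promoter in control, with SALL1 highest at 32 CPM, whereas PAX8 (1.67 CPM) and EYA1 (1.74 CPM) were low. Of 8 markers of other cell types 2 lay above that median, APOA1 at 14.2 CPM and MYOD1 at 8.21 CPM. The lowest were PTPRC, CD3E and ALB at 0.490, 0.837 and 0.226 CPM. The lists thus overlapped in level, with APOA1 above PAX8 and EYA1. Over the HEK293T list the summed level per library ranged from 81.8 to 84.0 CPM in control and from 79.5 to 86.5 CPM in overexpression. For the other cell types it ranged from 31.4 to 33.3 CPM in control and from 38.4 to 44.9 CPM in overexpression.

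The promoters at both ends of the range of accessibility are shown as sequence, since they carry the contrast described next. Each line gives the 250 bases before the gene start, 5′ to 3′ on the strand of the gene, from RefSeq on GRCh38.p14. Capitals mark CpG dinucleotides, the sites of DNA methylation, which cluster in the promoters of many developmental genes. HOXD11 and the shared start of HOXC4 and HOXC5 had the highest control levels among the members with an entry, and HOXD10, HOXB1 and HOXD4 the lowest.
HOXD11, chr2:176107030-176107279, plus strand: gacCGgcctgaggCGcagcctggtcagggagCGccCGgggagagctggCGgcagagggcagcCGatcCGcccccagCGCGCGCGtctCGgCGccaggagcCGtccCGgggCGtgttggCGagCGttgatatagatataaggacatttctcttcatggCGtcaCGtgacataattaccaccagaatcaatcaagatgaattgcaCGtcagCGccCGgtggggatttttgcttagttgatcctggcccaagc
HOXC4 and HOXC5, chr12:54016638-54016887, plus strand: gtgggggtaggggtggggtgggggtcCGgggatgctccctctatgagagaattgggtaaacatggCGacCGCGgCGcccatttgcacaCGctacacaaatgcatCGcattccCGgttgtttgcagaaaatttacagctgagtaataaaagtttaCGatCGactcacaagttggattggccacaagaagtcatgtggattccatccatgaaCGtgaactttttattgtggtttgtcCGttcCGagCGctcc
HOXD10, chr2:176116528-176116777, plus strand: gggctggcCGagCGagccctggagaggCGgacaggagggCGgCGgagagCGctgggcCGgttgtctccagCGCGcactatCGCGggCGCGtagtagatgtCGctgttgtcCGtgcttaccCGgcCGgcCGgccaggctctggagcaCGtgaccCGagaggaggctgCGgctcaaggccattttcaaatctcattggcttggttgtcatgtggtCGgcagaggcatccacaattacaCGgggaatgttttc
HOXB1, chr17:48531012-48531261, minus strand: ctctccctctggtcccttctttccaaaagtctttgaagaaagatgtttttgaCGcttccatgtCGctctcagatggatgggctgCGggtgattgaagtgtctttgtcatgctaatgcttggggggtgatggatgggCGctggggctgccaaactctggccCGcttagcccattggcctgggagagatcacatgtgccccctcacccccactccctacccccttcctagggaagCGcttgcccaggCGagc
HOXD4, chr2:176151300-176151549, plus strand: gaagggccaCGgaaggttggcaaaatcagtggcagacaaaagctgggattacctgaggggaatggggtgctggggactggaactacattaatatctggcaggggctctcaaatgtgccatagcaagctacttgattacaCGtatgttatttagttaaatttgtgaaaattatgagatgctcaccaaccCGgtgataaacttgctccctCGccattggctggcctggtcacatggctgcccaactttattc

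In the control cells, most HOX promoters were more accessible than the median nuclear promoter, a rank given without peak calls. Their median level was 20.6 CPM, against 7.04 CPM for all 28738 nuclear promoters, and the median HOX promoter stood at percentile 76.4 of the nuclear promoters. Of the 38, 31 lay above the median nuclear promoter and 20 above percentile 75. HOXD11 alone exceeded percentile 90, and none fell under percentile 25. The clusters differ in chromosome, and the median promoter of each of these chromosomes lay close to the others, at 8.37 CPM for chromosome 7 (HOXA), 8.08 CPM for chromosome 17 (HOXB), 8.87 CPM for chromosome 12 (HOXC) and 7.75 CPM for chromosome 2 (HOXD). These levels are described without a test, because genes are not replicates of a cluster.

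The HOXA cluster had the highest median of the 4 clusters. Its 10 promoters had a median of 23.9 CPM, and 9 of them lay between 13.9 and 27.9 CPM. HOXA2, which patterns the hindbrain and the pharyngeal arches, was the exception. It had 4.49 and 4.04 CPM in the control libraries and 2.80 and 4.45 CPM in the overexpression libraries, so the groups overlapped. HOXA13, needed for digits and the urogenital tract, had the highest control mean, with 27.1 and 28.6 CPM in control and 30.0 and 22.6 CPM in overexpression. Between these ends lay HOXA3 (26.9 ± 1.83 CPM, SD, n = 2), which acts in thymus development, and HOXA5 (26.2 ± 1.60), which acts in the lung. HOXA4 (24.3 ± 0.622), HOXA6 (24 ± 0.980) and HOXA11 (23.9 ± 1.91), the last a factor of kidney and forearm development, differed from each other by less than their replicate spread. HOXA9 (23.0 ± 1.93), a regulator of blood stem cells, HOXA10 (19.3 ± 2.73), which acts in the uterus, and HOXA7 (13.9 ± 0.0332) followed.

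The HOXB cluster had a lower median of 16.2 CPM and a step at its anterior end. HOXB1, which specifies a single hindbrain segment, had 30 and 22 counts in control, a mean of 2.13 CPM, while its neighbour HOXB2 reached 16.2 ± 0.927 CPM. HOXB9, a trunk gene at the other side of the compact part of the cluster, was highest, with 29.6 and 27.6 CPM in control and 29.8 and 29.1 CPM in overexpression. Its 4 libraries lay within a narrow range and the groups overlapped. The promoters between were those of HOXB3 (16.2 ± 0.826 CPM), HOXB4 (17.7 ± 0.273), a gene used to expand blood stem cells, HOXB5 (20.2 ± 2.16), HOXB6 (13.9 ± 0.270), HOXB7 (24 ± 0.270) and HOXB8 (12.8 ± 1.17). HOXB13, a prostate and tail bud gene that stands apart from the rest of the cluster, had 9.71 ± 0.273 CPM.

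In the HOXC cluster the median was 21.6 CPM. HOXC4, HOXC5 and HOXC6 had identical counts in every library, 398 and 324 in control and 170 and 87 in overexpression, and the RefSeq gene table starts all 3 genes at the same base. They are a single window counted 3 times, so the 38 promoters hold 36 distinct measurements. This window was the highest of the cluster, with 28.3 and 31.1 CPM in control and 31.7 and 29.8 CPM in overexpression. HOXC9 (21.3 ± 1.47 CPM), HOXC10 (21.1 ± 0.786), HOXC11 (23.2 ± 0.415) and HOXC13 (21.6 ± 0.611), the last needed for hair and nails, were nearly level. HOXC8, a thoracic gene, reached 12.5 ± 1.69 CPM. HOXC12, which lies between HOXC11 and HOXC13, was the low point of the cluster, with 5.48 and 4.13 CPM in control and 5.78 and 9.59 CPM in overexpression.

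The HOXD cluster was the most uneven. Its levels spanned 26.5-fold, against 6.54-fold in HOXA, 13.5-fold in HOXB and 6.19-fold in HOXC. The size of the HOXD span rests on the few counts of HOXD4, and it was 40.4-fold in control replicate 1 and 19-fold in control replicate 2, in both the widest of the 4 clusters. High and low promoters alternated by paralogue number. HOXD11, which acts with HOXA11 in the kidney and forearm, was the most open HOX promoter of all, with 51.9 and 45.7 CPM in control and 50.0 and 45.6 CPM in overexpression. Its neighbours on either side were far lower, HOXD12 at 11.1 ± 0.769 CPM and HOXD10, a limb and spinal cord gene, at 2.84 ± 0.193 CPM. HOXD13, the main gene of digit formation, had 23.7 ± 1.78 CPM and HOXD8 had 21.4 ± 0.715 CPM, while HOXD9 between HOXD8 and HOXD10 had 3.71 ± 0.0868 CPM. Of the anterior paralogue groups, HOXD3 had 14.3 ± 0.183 CPM and HOXD1 had 5.53 ± 0.747 CPM. HOXD4, a hindbrain gene, had the lowest control mean of the cluster, counted 18 and 25 times in control against 10 and 5 times with overexpression, and its replicates differed too much at this depth to rank it against HOXB1.

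**Figure D1:**
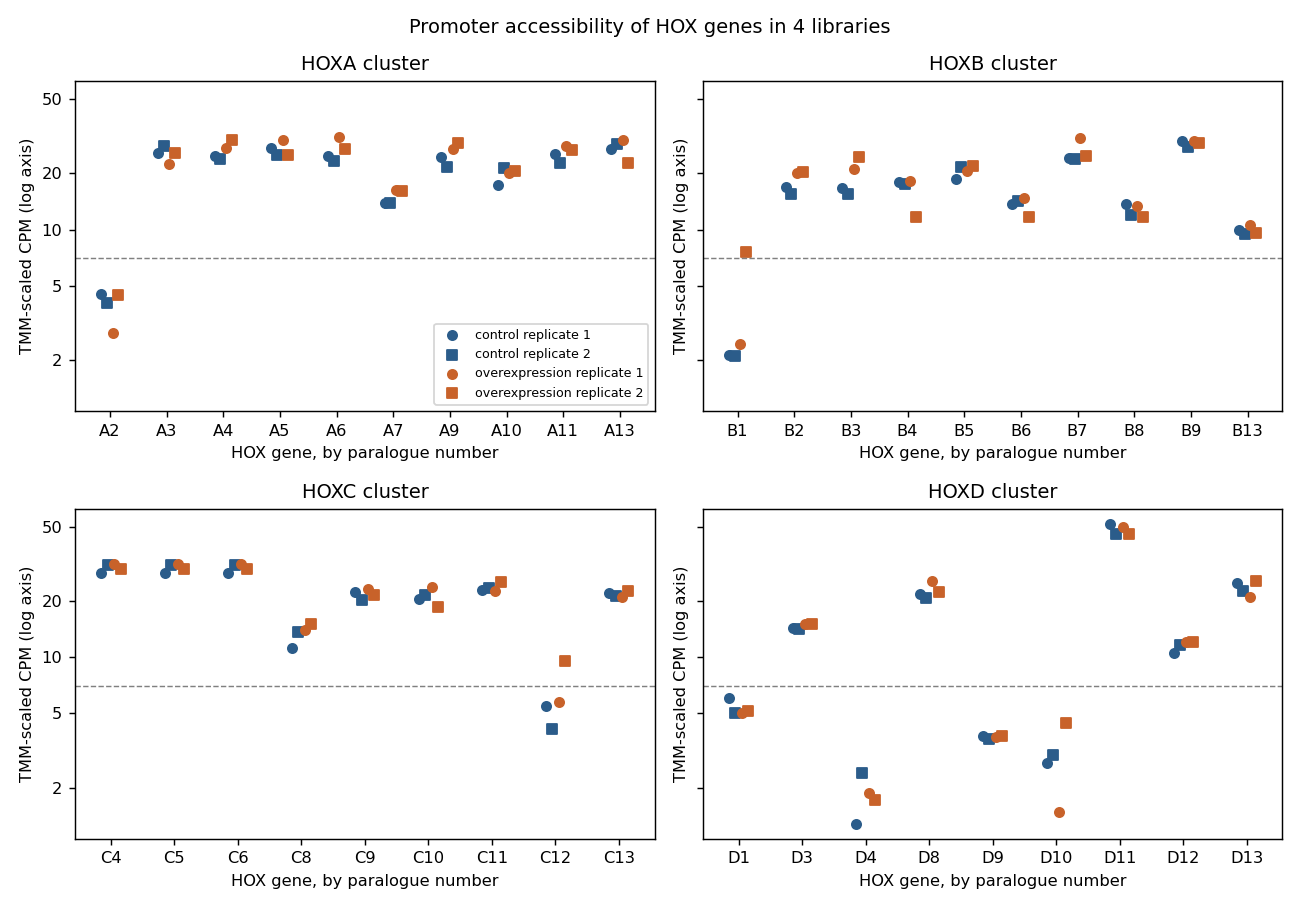
TMM-scaled CPM (log axis) of each HOX promoter in 2 control libraries (blue) and 2 overexpression libraries (orange), with circles for replicate 1 and squares for replicate 2 and 1 panel per cluster. The dashed line is the median nuclear promoter in control, 7.04 CPM. HOXA2, HOXB1, HOXC12, HOXD1, HOXD4, HOXD9 and HOXD10 lie below it in both control libraries.

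Position was taken from the paralogue number alone. Where each counted window lies along its cluster was not checked, so a window may sit apart from the place its number implies. The 7 anterior promoters (paralogue groups 1 to 3) had a median of 14.3 CPM in control, which is the level of HOXD3. The 15 central ones (groups 4 to 8) had 21.4 CPM and the 16 posterior ones (groups 9 to 13) 21.5 CPM. The central and posterior medians differed by 0.0059 on the log2 scale, less than the SD of that difference between the control libraries (0.028). With the shared HOXC4, HOXC5 and HOXC6 window counted once they differed by 0.087, more than that SD. The anterior median was lower than the central one by 0.58 on the log2 scale, and by 0.50 with that window counted once, an alternative chosen after the data were seen. The SD covers only the repeatability between control libraries and not the spread among promoters. That spread was 16.1-fold in the central group and 17.1-fold in the posterior group, so these differences do not establish a gap between positions. Low promoters occurred in all 3 positions, with HOXA2, HOXB1 and HOXD1 anterior, HOXD4 central and HOXC12, HOXD9 and HOXD10 posterior. Several windows also had counts equal or close to those of a transcript of the same locus. HOXD1 had the same counts as HAGLR in every library. HOXA13 differed from HOTTIP by at most 0.781% in any library, HOXC10 from HOXC-AS3 by at most 2.70%, HOXB3 from HOXB-AS3 by at most 3.09% and HOXA11 from HOXA11-AS by at most 3.66%. The coordinates of these windows were not compared, and close counts alone do not show shared reads, since HOXA4 and HOXA9 also lay within 9.27% of each other. ATAC-seq reads carry no strand, so where windows overlap a gene and its antisense partner cannot be told apart.

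Promoter sequence was compared with these levels for the 18 members (17 distinct windows) that had a RefSeq entry at the start of the gene. Over the 300 bases of an entry, from 250 before to 50 after the start, the HOX promoters had a median of 22 CpG dinucleotides, against 13 for all 24885 genes with such an entry, and both sets had a median GC content of 58%. HOXD4, among the lowest in level, had 4 CpG, the fewest of the 17, and HOXA13 had 44, the most. HOXA2 and HOXB1, also low, had 11 each. HOXD10 and HOXD1 do not follow that order, with 23 and 36 CpG at 2.84 and 5.53 CPM. Across the 17 windows, Spearman's rho between CpG number and control level was 0.351 and Pearson's r with the log2 level was 0.437. Genes are not independent replicates, all values come from the same libraries, and no p is given. The counted windows are longer than these sequences.

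**Figure D2:**
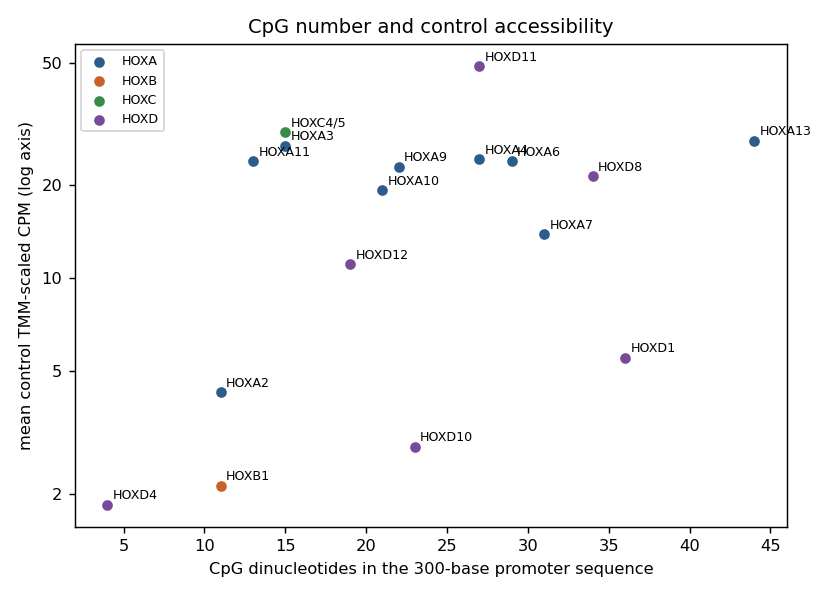
CpG dinucleotides in the 300-base RefSeq promoter sequence against mean control TMM-scaled CPM (log axis, n = 2 libraries) for 17 distinct HOX windows, coloured by cluster. HOXD4 (4 CpG) sits at the lower left, and HOXD10 (23) and HOXD1 (36) lie low despite more CpG.

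Short motifs were searched on both strands of the same 300 bases, and none of the 3 motifs contains another. The letters TGATNNAT, a form of the site bound jointly by HOX and PBX proteins, occurred in 3 of the 17 windows (17.6%), those of HOXA2, HOXB1 and HOXD11, and in 7.8% of all promoters. TATAAA occurred in 3 of the 17 windows (17.6%), those of HOXA3, HOXA9 and HOXA10, and in 12.3% of all promoters. CCAAT occurred in 14 of the 17 windows (82.4%) and in 36.1% of all promoters. A match describes the letters only.

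With MORC2 overexpressed, no HOX promoter changed past the threshold. All 38 were retained by the filter on low counts, and 0 had an adjusted p under 0.05 in the edgeR quasi-likelihood test, where 2.47% of the 23407 promoters tested did. At an unadjusted p under 0.05 there were 7 (18.4%), against 17.2% of all promoters tested, so the HOX share lay near the background. At an adjusted p under 0.1 there were 2, HOXB3 and HOXB1, against 4.98% of all. The independent filtering of DESeq2 left an adjusted p for 1 of the 38, HOXD11, which was not called. Without that filtering DESeq2 called 0 of the 38, and limma-voom called 1, HOXB3. The SE of the log2 fold change ranged from 0.106 for HOXD11 to 0.456 for HOXD4, and the 95% interval of HOXD11, from −0.23 to 0.19, was the narrowest.

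HOXB3, which patterns the hindbrain and the neck, had the smallest p of the 38. Its counts were 235 and 162 in control, then 113 and 71 with overexpression, which came to 16.7 and 15.6 CPM against 21.1 and 24.3 CPM. Both overexpression libraries lay above both control libraries. The log2 fold change was 0.46 (SE 0.143, edgeR adjusted p 0.0535). Its call depended on the method, since HOXB3 passed the threshold with upper-quartile scaling (adjusted p 0.0188), with nuclear totals as library size (0.0269), after a filter at a mean of 50 counts (0.0207), with the edgeR 4 form of the test (0.0430) and with limma-voom (0.0442).

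HOXB1 had the largest fitted change and the least even replicates. It had 13 and 22 counts in overexpression, or 2.42 and 7.54 CPM, against 2.14 and 2.11 CPM in control. The lower overexpression library lay just above the controls and the higher one 3.11-fold above its partner. The log2 fold change was 1.00 (SE 0.348, edgeR adjusted p 0.0870). It was 1.81 with an adjusted p of 0.0205 when overexpression replicate 1 was left out, and 0.18 when overexpression replicate 2 was left out, so the size of the change came from replicate 2. HOXB1 lies in the lowest of 4 equal bins of promoters by abundance, where all promoters had a median of 0.37, and with loess scaling on abundance its value was 0.61 (adjusted p 0.558).

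In each of the other clusters the promoter with the smallest p did not pass the threshold. HOXA6, a trunk gene, had 24.6 and 23.3 CPM in control and 31.1 and 27.1 CPM in overexpression, and the groups did not overlap (log2 fold change 0.30, SE 0.127, edgeR adjusted p 0.180). HOXC12, a gene of the hair follicle, had a log2 fold change of 0.55 (SE 0.251, edgeR adjusted p 0.228), and the libraries did not overlap although the overexpression replicates differed 1.66-fold. Its value was 0.34 with loess scaling, 0.23 without overexpression replicate 2 and 0.96 without overexpression replicate 1. HOXD8 had 21.9 and 20.9 CPM in control and 25.7 and 22.3 CPM in overexpression (log2 fold change 0.19, SE 0.134, edgeR adjusted p 0.476). Without overexpression replicate 1, HOXA6 was at 0.16 and HOXD8 at 0.047. The others with an unadjusted p under 0.05 were HOXA9 (log2 fold change 0.27), HOXB2 (0.31) and HOXB7 (0.25). The other promoters with the highest or lowest level of their cluster did not pass the threshold. HOXD11 had a log2 fold change of −0.022 (SE 0.106), HOXA13 of −0.030 (SE 0.127), HOXB9 of 0.042 (SE 0.124), the HOXC4, HOXC5 and HOXC6 window of 0.065 (SE 0.122), HOXA2 of −0.34 (SE 0.319) and HOXD4 of 0.035 (SE 0.456).

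**Figure D3:**
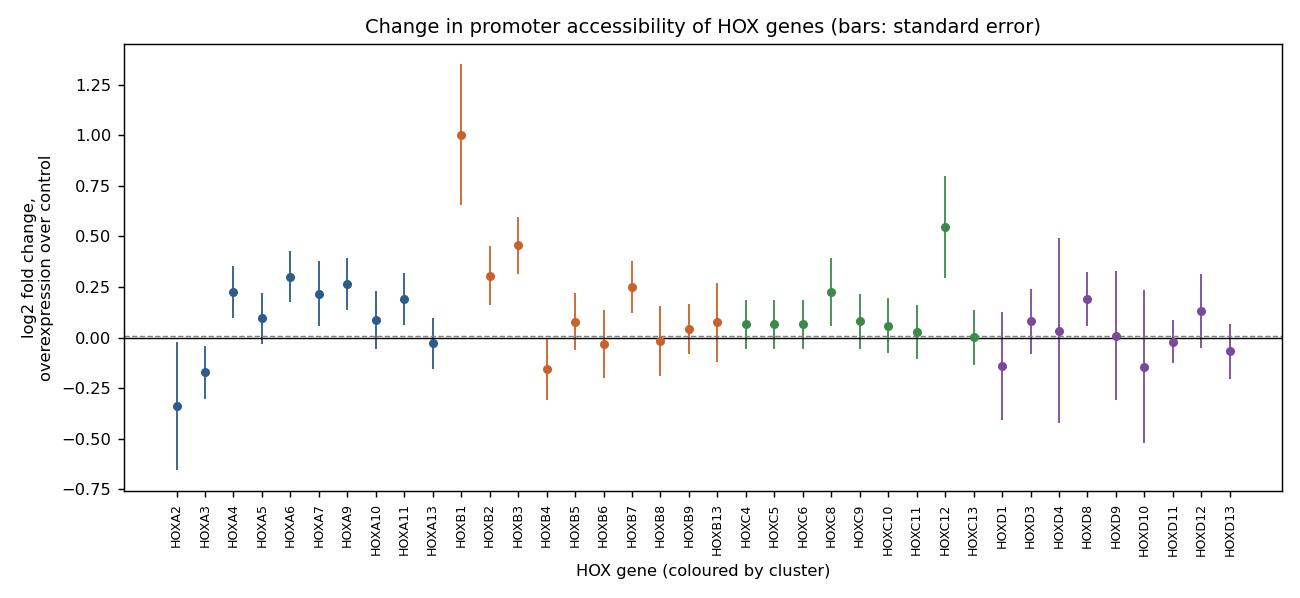
Log2 fold change of overexpression over control for the 38 HOX promoters (points, coloured by cluster) with the standard error of the edgeR fit (bars). The solid line is 0 and the dashed line is the median of all promoters tested, 0.0099. HOXB1 (1.00), HOXC12 (0.55) and HOXB3 (0.46) stand highest, and HOXA2 (−0.34) lowest.

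The fitted changes lay on the higher side of 0 more often than on the lower. Of the 38 log2 fold changes, 28 were above 0 (73.7%), against 51.4% of all promoters tested, and with the HOXC4, HOXC5 and HOXC6 window counted once 26 of 36 were. In 14 of the 38 promoters both overexpression libraries lay above both control libraries, where 24.8% of all promoters tested did so, and in 0 of the 38 both lay below, where 24.9% of all did so. The 14 comprised 5 of 10 in HOXA, 4 of 10 in HOXB, 2 of 9 in HOXC and 3 of 9 in HOXD. The 24 others overlapped. The median log2 fold change was 0.070, against 0.0099 for all promoters tested. By cluster it was 0.14 in HOXA, 0.077 in HOXB, 0.065 in HOXC and 0.0082 in HOXD. Without overexpression replicate 1 the median of all 38 was 0.046 and that of HOXB 0.020. Upper-quartile scaling moved the median of all promoters to 0.090 and put 33 of the 38 HOX values above 0, with 63.1% of all promoters above 0 in the same fit.

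Fold changes in these libraries depended on the abundance of the promoter, so the HOX values were also set beside promoters of like abundance. For this, 4 bins of equal size were formed from mean log2 CPM. In the highest bin, 17 HOX promoters were found, with a median of 0.065, where the 5852 promoters of that bin together had −0.12. The 17 hold the shared HOXC4, HOXC5 and HOXC6 window 3 times, and the median is the value of that window. A median with it counted once was not computed by bin. In the next bin, the 12 HOX promoters had 0.080 where all had −0.056. In the lower bins the order was reversed, with 0.042 for 6 HOX promoters against 0.13, and 0.035 for 3 HOX promoters against 0.37 in the lowest. Loess scaling, which removes the dependence on abundance, gave a HOX median of 0.15 and a median of −0.0068 over all promoters, and called 0 HOX promoters. No bin holds 20 HOX promoters, and the difference between the HOX genes and the other promoters was not tested.

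**Figure D4:**
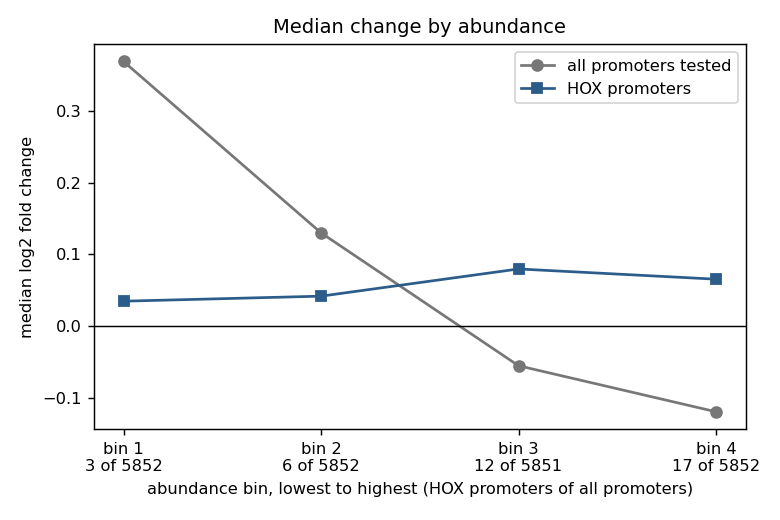
Median log2 fold change of overexpression over control in 4 equal bins of promoter abundance, for all promoters tested (grey circles) and for HOX promoters (blue squares), with the number of HOX promoters of all promoters under each bin. The grey line falls from 0.37 to −0.12, and the blue line stays between 0.035 and 0.080. The HOXC4, HOXC5 and HOXC6 window counts 3 times in the highest bin.

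The order of the HOX promoters was alike in both groups. Across the 36 distinct windows, Spearman's rho of the CPM was 0.975 between the control libraries, 0.919 between the overexpression libraries and 0.963 between the group means. These are descriptions across genes of the same libraries. The overexpression replicates differed more than 1.5-fold at 5 promoters, HOXA2, HOXB1, HOXB4, HOXC12 and HOXD10. HOXD10 was the widest after HOXB1, with 1.49 and 4.45 CPM, and its group fell on both sides of the control values of 2.71 and 2.98 CPM.

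Other transcripts within and beside the clusters held both kinds of level. Of a list of 32 such genes all were tested, 2 rose, 0 fell and 30 did not pass the threshold, where 1.16% of all promoters tested rose and 1.3% fell. PRAC2, a small gene between HOXB9 and HOXB13, was counted 20 and 19 times in control against 23 and 13 times with overexpression, or 1.42 and 1.83 CPM against 4.29 and 4.45 CPM. Its log2 fold change was 1.44 (SE 0.367, edgeR adjusted p 0.0110). PRAC1 beside it had a log2 fold change of 1.31 (SE 0.410) and missed the threshold with an adjusted p of 0.0525. Both had under 25 counts in every library, and in their abundance range the median promoter also had a positive fold change. PRAC2 was no longer past the threshold with loess scaling (adjusted p 0.245) or in DESeq2 without independent filtering (0.503). HOXB-AS3, whose counts nearly match those of HOXB3, had a log2 fold change of 0.48 (SE 0.143, edgeR adjusted p 0.0417). HOXB3 and HOXB-AS3 thus lay on opposite sides of the threshold with almost the same counts. The call of HOXB-AS3 was lost with loess scaling (0.0562), with no filter (0.0617) and in DESeq2 without independent filtering (0.608).

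The clusters also carry microRNA genes, small RNAs that repress mRNAs, HOX mRNAs among them, through a seed of bases 2 to 8. The mature forms are shown with the seed in capitals, from RefSeq on GRCh38.p14. Several loci make the same or nearly the same RNA, but the windows around their annotated starts differed in accessibility. Whether those windows hold the promoters from which these RNAs are transcribed was not tested.
hsa-miR-196a-5p: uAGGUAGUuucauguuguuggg
hsa-miR-196b-5p: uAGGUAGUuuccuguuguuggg
hsa-miR-10a-5p: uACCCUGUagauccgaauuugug
The miR-196 forms share the seed AGGUAGU. The locus in HOXA, MIR196B, had 15.5 ± 0.443 CPM in control. MIR196A2 in HOXC had 4.82 ± 0.432 CPM and MIR196A1 in HOXB had 1.37 ± 0.174 CPM, although both encode the identical miR-196a-5p. MIR10A, near HOXB4, had 2.50 ± 0.815 CPM and MIR10B, near HOXD4, had 1.64 ± 0.0031 CPM. MIR615, which lies within HOXC5, had 18.9 ± 0.447 CPM. None of these 6 passed the threshold in overexpression, and the low ones had under 35 counts in each library apart from MIR196A2.

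Among genes that control or assist HOX genes, 2 of the 58 promoters tested passed the threshold (3.45%), against 2.47% of all promoters tested. Of 11 genes of Polycomb repressive complex 2, which methylates histone H3 on silent HOX genes, 0 rose and 0 fell. The smallest p was that of EED, which binds the methylated histone (log2 fold change −0.45, SE 0.154, edgeR adjusted p 0.0805). Of 18 genes of Polycomb repressive complex 1, which compacts that chromatin, 0 rose and 1 fell. PCGF3, a subunit of a variant complex, went from 24.6 and 21.3 CPM to 17.1 and 14 CPM (log2 fold change −0.53, SE 0.147, edgeR adjusted p 0.0259) and was not past the threshold with upper-quartile scaling (0.0689), totals of nuclear promoters (0.0539), the filter at a mean of 50 counts (0.0837), loess scaling (0.178) or DESeq2 without independent filtering (0.570). Of 11 genes of MLL complexes and H3K27 demethylases, which oppose Polycomb, 0 passed, and KDM6B had the smallest p (log2 fold change −0.18, adjusted p 0.421). The medians of these lists were −0.18, −0.15 and −0.14, at median control levels of 19.6, 19.2 and 28.7 CPM. The median over all promoters was 0.0099, and in the upper abundance bins it was −0.056 and −0.12.

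Of 9 TALE cofactors, the PBX, MEIS and PKNOX proteins that bind DNA together with HOX proteins, 0 rose and 1 fell. PKNOX1 had 53.4 and 53.2 CPM in control and 38.4 and 38 CPM in overexpression, and the groups did not overlap (log2 fold change −0.48, SE 0.110, edgeR adjusted p 0.00387). Its adjusted p was 0.252 with loess scaling and 0.136 in DESeq2 without independent filtering. Of 9 retinoic acid receptors and CDX factors, which act upstream of HOX genes in the embryo, 0 passed, with RXRB having the smallest p (log2 fold change −0.32, adjusted p 0.217). RXRB was the only member below 0, and 8 of the 9 lay above 0. The list had a median of 0.35 at a median control level of 8.78 CPM. All promoters of the 2 lower abundance bins had medians of 0.13 and 0.37. A list of 69 other homeobox genes outside the clusters left out the TALE cofactors above, whose median control level was 27.7 CPM. Of the 69 genes, 68 were tested and 0 passed the threshold, with the smallest p at IRX5 (log2 fold change −0.30, edgeR adjusted p 0.111). Their median log2 fold change was −0.0028, with 33 values above 0 and 35 below. Their median control level was 12.7 CPM, with 27 of 69 above percentile 75 of the nuclear promoters, against 20 of 38 HOX promoters. The difference between these lists was not tested.

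**Figure D5:**
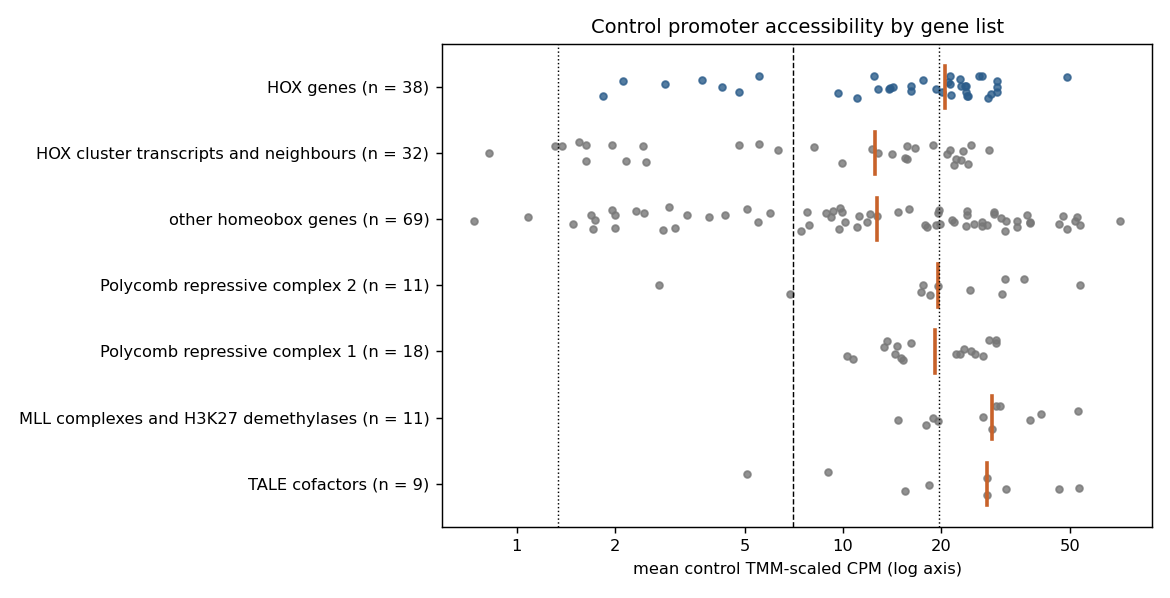
Mean control TMM-scaled CPM (log axis, n = 2 libraries) of each promoter in 7 gene lists. Orange bars are list medians, the dashed line is the median nuclear promoter (7.04 CPM) and the dotted lines are percentiles 25 and 75 (the latter at 19.8 CPM). The HOX median of 20.6 CPM lies above the medians of the cluster transcripts (12.6 CPM) and the other homeobox genes (12.7 CPM). It is close to those of Polycomb repressive complexes 2 (19.6 CPM) and 1 (19.2 CPM). The medians of the MLL complexes and H3K27 demethylases (28.7 CPM) and of the TALE cofactors (27.7 CPM) are higher.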

How the data were processed

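Read pairs had been adapter-trimmed, mapped to T2T-CHM13 with bowtie2, limited to proper pairs of mapping quality 30 or more and cleared of duplicates by Picard. The submitters' processing notes also list deepTools and MACS2. The authors deposited raw fragment counts, 1 row for each Entrez gene. A promoter was the 2 kb window around the start of a gene, and a fragment was counted by its midpoint. That the table covers the whole window is an assumption, and no shift for the Tn5 offset is described. The peak lists and their positions were not used here, since no annotation of CHM13 was at hand.

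Symbols came from RefSeq genes of GRCh38.p14, which named 28763 of 28775 rows. Counts were filtered with filterByExpr of edgeR 4.0.16 (R 4.3.3), scaled by TMM and compared by the legacy quasi-likelihood F-test (two-sided) on group alone. P-values were adjusted after Benjamini-Hochberg over all 23407 promoters (threshold 0.05). Prior degrees of freedom came out infinite, so dispersion was shared between promoters of like abundance. The SE is the fold change over the square root of F, and 95% intervals are 1.96 SE to either side. The common coefficient of variation was 4.28%. DESeq2 1.42.0 and limma 3.58.1 served as alternatives. Loess scaling was a loess of each library's log counts on abundance. Sequence features and summaries used Python 3.11.15, pandas 2.3.3 and scipy 1.17.1. The test had been tried on simulated counts.

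The HOX genes and the other lists were chosen with earlier results of these data known. Full values are given for HOX promoters past the threshold, for the highest and lowest control level and the smallest p in each cluster, and, in the other lists, for promoters past the threshold or with the smallest p. PRAC1 and the microRNA genes were named after their values were seen. With 2 libraries per group, an exact permutation test cannot give a p below 0.333. Replicates differed by more than sampling noise (chi-square per degree of freedom 1.25 in control and 1.12 in overexpression) and were kept apart. Reads carry no molecular identifiers, so a count is not a number of independent molecules.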

Additional observations from a re-analysis of the deposited data

How the results depend on the processing

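The causes of these shifts were not tested. The count of HOX promoters past the threshold was 0 with DESeq2 size factors, loess scaling, no filter, DESeq2 without independent filtering, no mitochondrial promoters and the replicate block. With that filtering DESeq2 gave an adjusted p to 1 of the 38, so its count of 0 says nothing on the others. It was 1 (HOXB3) with upper-quartile scaling, totals of nuclear promoters, a filter at a mean count of 50, the edgeR 4 test and limma-voom, 2 (HOXB3 and HOXB1) with an adjusted p under 0.1, and from 0 to 1 when 1 replicate was left out, the 1 being HOXB1 without overexpression replicate 1. Over all promoters the 577 calls became 54 with loess scaling, 218 under that filter, 108 with DESeq2 and 52 without its independent filtering, and from 101 to 206 without 1 replicate. HOX values above 0 numbered 28 of 38 (51.4% of all promoters), 26 without mitochondrial promoters, with no filter or without either control replicate, 32 with totals of nuclear promoters (59.2% of all), 33 with upper-quartile scaling (63.1% of all) and 29 of 31 under the filter at a mean of 50 counts, which leaves out 7 HOX promoters.

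The HOX median of 0.070 was 0.046 to 0.10 without 1 replicate and 0.15 with upper-quartile scaling, loess scaling and the filter at a mean of 50 counts. For the same 3 settings, in that order, HOXA (0.14) gave 0.22, 0.23 and 0.26 and HOXC (0.065) gave 0.15, 0.19 and 0.14. HOXB (0.077) was 0.15 with loess scaling and from 0.020 to 0.11 without 1 replicate, the lowest without overexpression replicate 1. HOXC gave 0.12 with totals of nuclear promoters and from 0.00096 to 0.13 without 1 replicate, the lowest without overexpression replicate 1. HOXD (0.0082) gave 0.088 with upper-quartile scaling and 0.15 under that filter, and was −0.015 without control replicate 2. In control, without 1 replicate, HOXA minus HOXB (0.56) was from 0.55 to 0.56, HOXA minus HOXC (0.15) from 0.084 to 0.14 and the central minus the anterior median (0.58) from 0.60 to 0.62. With each window once the last was 0.50 and the posterior minus the central median 0.087.

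Among the HOX promoters described with full values, direction turned at HOXA2, HOXA13, HOXB9, HOXC4 to HOXC6, HOXD4 and HOXD11, none of them near the threshold. HOXA13 (−0.030) was 0.051 after upper-quartile scaling, 0.080 under loess, 0.026 for totals of nuclear promoters and 0.042 under that filter. HOXD11 (−0.022) in the same order was 0.060, 0.14, 0.034 and 0.050. HOXD4 was −0.38 with loess scaling and −0.014 in DESeq2 without independent filtering. Without 1 replicate, HOXA2 ranged from −0.62 to 0.044, HOXA13 from −0.31 to 0.10, HOXB1 from 0.18 to 1.81, HOXB9 from −0.0060 to 0.10, the HOXC4, HOXC5 and HOXC6 window from −0.0070 to 0.13, HOXD4 from −0.41 to 0.49 and HOXD11 from −0.11 to 0.080. Without 1 replicate, PKNOX1 (−0.50 to −0.48), PCGF3 (−0.73 to −0.41) and PRAC2 (1.24 to 1.60) each lost the call in 3 of 4 fits and HOXB-AS3 (0.40 to 0.59) in 4 of 4.

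Replicate numbers are shared between the groups, and over 14976 promoters libraries with the same number correlated at 0.0501 in their deviations from the group means, and the numbers were not taken as pairs. With the replicate block, 488 promoters were called, the HOX median was 0.072, the block moved the call of no HOX promoter, and HOXB3 had an adjusted p of 0.056.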
